A study of Mus musculus with 6 samples.

Results

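The Toll-like receptors are a family of innate immune receptors, and 10 of their genes (Tlr1, Tlr2, Tlr3, Tlr4, Tlr5, Tlr6, Tlr7, Tlr8, Tlr9 and Tlr13) were examined in infarcted mouse hearts. The genes were taken by symbol from the 26012 genes listed in the expression table, and each symbol matched 1 gene. They were divided by where the receptor works into 5 receptors of the cell surface (Tlr1, Tlr2, Tlr4, Tlr5 and Tlr6) and 5 receptors of endosomes (Tlr3, Tlr7, Tlr8, Tlr9 and Tlr13). All 10 passed the filter on low values, a mean of at least 1 normalized count, which kept 21126 genes.

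RNA was sequenced from ventricular tissue of 6 male C57BL/6 mice that were 8 weeks old at surgery. Every mouse had a myocardial infarction (MI), made by ligating the left anterior descending (LAD) coronary artery, and an injection of 10 μg of mimic into the heart. The control mimic group and the miR-19a/19b mimic group each held 3 hearts, collected on day 4 after MI and described in the methods as biological replicates. Such a mimic is a double-stranded RNA, made synthetically, that stands in for a mature miRNA. Both groups were infarcted and injected, so no uninjured heart entered these comparisons, and whole ventricular tissue was measured rather than a single cell type. The libraries were made from polyadenylated RNA, which does not hold the mature miRNA, so the level of the mimic itself could not be checked in them.

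Toll-like receptors recognise microbial molecules and molecules set free by damaged cells. The surface receptors bind lipids, lipopeptides and proteins, whereas the endosomal receptors bind nucleic acids and need the chaperone Unc93b1 to reach the endosome. Most of them signal through the adaptor Myd88 to NF-κB and inflammatory cytokines, Tlr3 signals through Ticam1 (TRIF), and Tlr4 uses both adaptors. In the infarcted heart, dying cells and broken matrix release such ligands, and infiltrating leukocytes carry many of the receptors.

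The mature sequences of the injected miRNAs, taken from RefSeq on GRCm38.p6, are shown because they set which transcripts could pair with the mimics. Capitals mark the seed, bases 2 to 8, which is the same in both. The 2 sequences differ at 1 position, position 11 counted from the 5′ end.
mmu-miR-19a-3p: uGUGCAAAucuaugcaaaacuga
mmu-miR-19b-3p: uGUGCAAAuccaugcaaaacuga

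Matches to this seed were searched on the transcript strand in the annotated transcripts of each gene (GENCODE M21, GRCm38), as the 8-mer TTTGCACA or either of the 7-mers it contains, TTTGCAC and TTGCACA. The longest 3′ UTR of 0 of the 10 receptor genes held a match, and neither did any shorter annotated 3′ UTR of these genes. Among tested genes with a 3′ UTR, 3070 of 15866 (19.3%) held one, at a median UTR length of 1261 bases. The UTRs of the receptor genes ran from 58 bases in Tlr8 to 1496 bases in Tlr3, and among genes with a UTR within 20% of each length the share with a match was between 0% for the length of Tlr8 and 18.8% for the length of Tlr3.

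In the coding sequence, 4 of the 5 endosomal receptors and 0 of the 5 surface receptors held a match, against 2228 of 15952 genes (14.0%). Among genes with a coding sequence within 20% of each receptor's length, the share was between 20.1% for the length of Tlr2 and 23.5% for the length of Tlr8 and Tlr9. The matches are printed with 10 bases on either side, the match in capitals, because the surface and endosomal classes differed in how many genes held one. Tlr8 held 2 matches, of which the second was the 8-mer, and Tlr7, Tlr9 and Tlr13 held 1 each.
Tlr7, chrX:167307306-167307312, minus strand: tctttctgtaTTGCACAagcttcccag
Tlr8, chrX:167245064-167245070, minus strand: ctccatttccTTGCACAccttgcaagg
Tlr8, chrX:167243745-167243752, minus strand: cctatctaagTTTGCACAttccctggag
Tlr9, chr9:106225037-106225043, plus strand: cacaactccaTTGCACAggctgtcaat
Tlr13, chrX:106158060-106158066, plus strand: tagtgggctaTTTGCACtgaaggagct
These letters describe the transcripts and were not tested as binding sites.

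The libraries held between 19398196 and 23645308 reads counted on genes, and the deposited values are normalized counts, reads per gene scaled by a library's size factor. The receptor genes rested on between 101 reads, for Tlr5, and 2174 reads, for Tlr13, in a heart. The miR-19a/19b mimic hearts were not alike: replicate 3 differed from replicates 1 and 2 by a chi-square per degree of freedom of 135 and 121 over genes, where the other pairs of hearts of a group gave 10.3 to 26.6. That heart had the lowest sum of 8 cardiomyocyte markers, 240391 normalized counts against 386061 to 521000 in the control hearts and 694033 and 746407 in replicates 2 and 1. In replicate 1 the sum of 14 skeletal muscle markers was 3543 normalized counts, where the other 5 hearts had 37.1 to 76.1. Part of the results, for the receptor genes, their classes and the pathway lists, is therefore given without these hearts as well. The named pathway genes and the marker sums are given with all hearts only.

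The central result was a lower level of Tlr9, the receptor of unmethylated CpG DNA, in hearts injected with miR-19a/19b mimic. Tlr9 (ENSMUSG00000045322; GRCm38 chromosome 9, 106222598 to 106226883, plus strand) had 516, 536 and 475 normalized counts in control mimic replicates 1, 2 and 3, while the 3 hearts with miR-19a/19b mimic, in the same order, had 309.9, 252 and 396. All 3 miR-19a/19b mimic hearts lay below all 3 control hearts. The mean went from 509 ± 31.2 (SD, n = 3) to 319 ± 72.6, on the log2 scale a difference of -0.69 (standard error 0.16, 95% interval -1.07 to -0.32), or 0.618 of the control level. In limma on log2(normalized count + 1) the unadjusted p was 0.00224 and the p adjusted by the Benjamini-Hochberg method over all 21126 genes was 0.817, so the difference did not pass at an adjusted p of 0.05. An exact permutation test of the 6 values gave p = 0.1 (two-sided), the smallest that 3 hearts against 3 can give.

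The difference in Tlr9 was larger without miR-19a/19b mimic replicate 3. Replicates 1 and 2, then left in that group, had cardiomyocyte marker sums above every control. In that comparison the log2 fold change of Tlr9 was -0.86 with an adjusted p of 0.0098 in limma, past the threshold. Of the 21202 genes then tested, 164 (0.774%) were lower and 383 higher at that threshold. Without miR-19a/19b mimic replicate 1, the heart with skeletal muscle transcripts, the log2 fold change of Tlr9 was -0.69 (adjusted p = 1 from limma). With each heart left out it ranged from -0.86 to -0.54, and over all alternatives its adjusted p ranged from 0.0098 to 1. In these bulk samples, fewer cells that carry a transcript and less of the transcript per cell cannot be told apart.

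**Figure D1:**
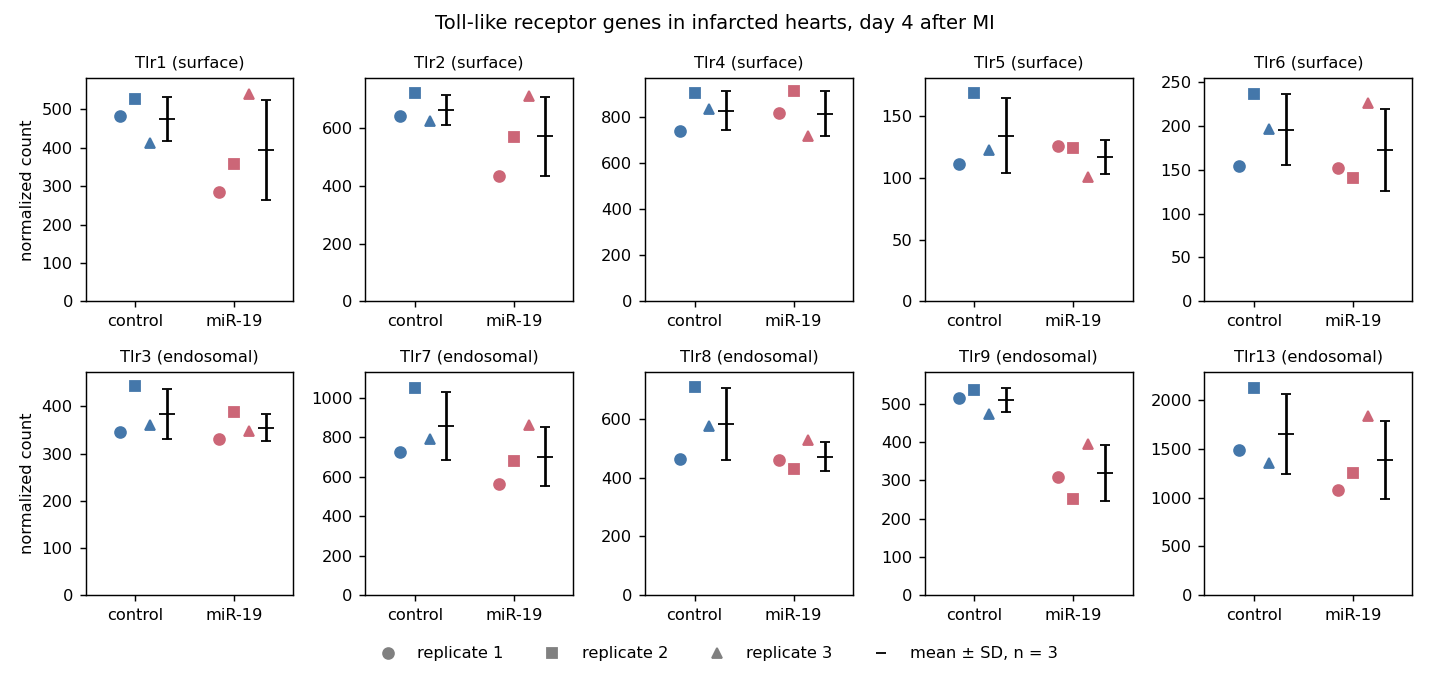
Normalized count of each Toll-like receptor gene in each heart, with 5 surface receptors above and 5 endosomal receptors below; points are hearts, marked by replicate, and bars show the mean ± SD of 3 hearts. The Tlr9 panel alone shows no overlap, with miR-19a/19b mimic hearts between 252 and 396 and control mimic hearts between 475 and 536.

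All 10 receptor genes had a log2 fold change below 0, from -0.69 for Tlr9 to -0.02 for Tlr4, with a median of -0.25, where 49.2% of all tested genes lay below 0 and the median of all genes was 0.0041. Of the 10, 0 passed an adjusted p of 0.05, as did 0.0% of all genes, and 1 (Tlr9) had an unadjusted p under 0.05 in the lower direction, where 2.63% of all genes did. The groups did not overlap, in the lower direction, for 1 of the 10 and for 5.3% of all genes, and in the higher direction for 0 of the 10 and for 3.9% of all genes. For 7 of the 10, at least 2 of the 3 miR-19a/19b mimic hearts lay below every control heart, which held for 21.6% of all genes.

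Among the surface receptors, Tlr2 recognises lipopeptides as a pair with Tlr1 or Tlr6. Tlr2 (ENSMUSG00000027995; chromosome 3, 83836272 to 83841767, minus strand) had 639.9, 720.2 and 623 normalized counts in the control hearts and 435, 567 and 709.7 in the miR-19a/19b mimic hearts (log2 fold change -0.24, 95% interval -0.62 to 0.15, limma adjusted p = 1). Replicates 1 and 2 of the miR-19a/19b mimic group lay below all controls and replicate 3 lay within them. Tlr1 (ENSMUSG00000044827; chromosome 5, 64924679 to 64933563, minus strand) had 484, 526 and 414 normalized counts against 285, 359 and 539 (log2 fold change -0.31, interval -0.80 to 0.18, limma adjusted p = 1). Its miR-19a/19b mimic hearts stood in the same order as those of Tlr2, with replicate 3 above every control. Tlr6 (ENSMUSG00000051498), next to Tlr1 at 64952031 to 64960097 on the same strand, had 155, 236 and 196 normalized counts against 152, 140.2 and 226 (log2 fold change -0.19, interval -0.69 to 0.31, limma adjusted p = 1). The transcripts of Tlr1 and Tlr6 align at 88.8% identity over 1328 bases, so a few of their reads could be shared.

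Tlr4, the receptor of bacterial lipopolysaccharide, differed least of the 10. Tlr4 (ENSMUSG00000039005; chromosome 4, 66827584 to 66930284, plus strand) had 737, 904 and 835 normalized counts in control hearts and 814, 909 and 716 in miR-19a/19b mimic hearts (log2 fold change -0.02, interval -0.31 to 0.26, limma adjusted p = 1). Here replicate 3 was the lowest and replicate 2 the highest of all hearts, and without replicate 3 of the miR-19a/19b mimic group the sign turned, to 0.065. Tlr5, the flagellin receptor (ENSMUSG00000079164; chromosome 1, 182954788 to 182976044, plus strand), had the fewest reads, with 112, 169 and 122 normalized counts against 126, 125 and 101 (log2 fold change -0.18, interval -0.62 to 0.26, limma adjusted p = 1). The control hearts of Tlr5 spread wider than the miR-19a/19b mimic hearts, and the groups overlapped.

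Among the endosomal receptors other than Tlr9, Tlr7 and Tlr8 recognise single-stranded RNA and lie side by side on the X chromosome. Tlr7 (ENSMUSG00000044583; 167304929 to 167330558, minus strand) had 726, 1051 and 791 normalized counts in control hearts and 565, 680.4 and 862 in miR-19a/19b mimic hearts (log2 fold change -0.29, interval -0.70 to 0.13, limma adjusted p = 1). Tlr8 (ENSMUSG00000040522; 167242696 to 167264329, minus strand) had 463, 709 and 577 against 460.5, 429 and 528 (log2 fold change -0.29, interval -0.66 to 0.08, limma adjusted p = 1). For both, replicates 1 and 2 of the miR-19a/19b mimic group were below every control, although the lowest control of Tlr8 and replicate 1 were close. The 2 transcripts align at 66.2% identity over 473 bases.

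Tlr13, which recognises bacterial ribosomal RNA, had the most reads of the family. Tlr13 (ENSMUSG00000033777; chromosome X, 106143204 to 106160493, plus strand) had 1487, 2122 and 1357 normalized counts in control hearts and 1075, 1252 and 1842 in miR-19a/19b mimic hearts (log2 fold change -0.26, interval -0.77 to 0.24, limma adjusted p = 1). Again replicates 1 and 2 lay below every control and replicate 3 between them. Tlr3, the receptor of double-stranded RNA (ENSMUSG00000031639; chromosome 8, 45395665 to 45410608, minus strand), had 346, 444 and 362 against 330.3, 388 and 348 (log2 fold change -0.11, interval -0.41 to 0.19, limma adjusted p = 1). Of its 5207 exon bases, 381 overlap the antisense gene Gm45542 on the other strand. Since the sources used here do not say whether reads were counted by strand, the value of Tlr3 is uncertain to that extent.

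**Figure D2:**
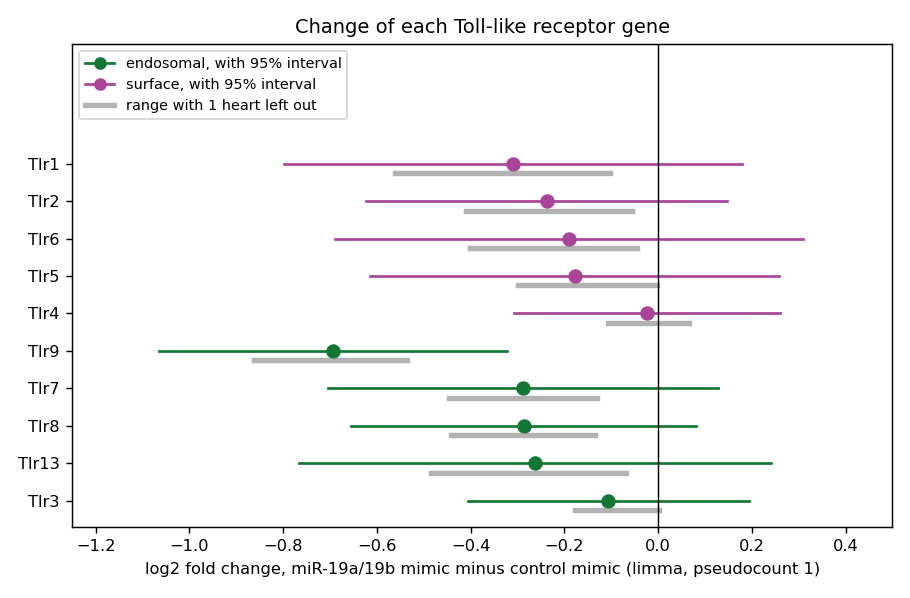
Log2 fold change of each receptor gene, miR-19a/19b mimic minus control mimic, from limma; points are estimates with 95% intervals, and grey bars span the estimates with each of the 6 hearts left out in turn. The interval of Tlr9, -1.07 to -0.32, is the only one that lies wholly below 0.

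Many of the receptor genes placed the hearts of a group in the same order. Control replicate 2 was the highest control for all 10 genes, and the lowest was replicate 1 for 6 genes and replicate 3 for 4. In the miR-19a/19b mimic group, replicate 1 lay below the control mean for all 10 genes and below every control for 8. Replicate 2 lay below the control mean for 8 and below every control for 7, while replicate 3 lay below the control mean for 5 and below every control for 3 and was the highest of its group for 7. Without replicate 3, 7 of the 10 genes (Tlr1, Tlr2, Tlr6, Tlr7, Tlr8, Tlr9 and Tlr13) had an unadjusted p under 0.05 in the lower direction, where 6.08% of all genes did. Over all genes, 1289 were then lower and 1778 higher at that threshold in limma. The miR-19a/19b mimic hearts left, replicates 1 and 2, had cardiomyocyte marker sums above every control. Their macrophage, neutrophil and B cell marker sums were below every control. Whether this bears on the receptor genes was not tested. In that comparison of 3 hearts with 2, the log2 fold change was -0.56 for Tlr1, -0.48 for Tlr13, -0.45 for Tlr7, -0.41 for Tlr2, -0.40 for Tlr6 and -0.37 for Tlr8, with limma adjusted p between 0.0603 and 0.339. Without miR-19a/19b mimic replicate 1, Tlr9 alone had an unadjusted p under 0.05 (log2 fold change -0.69), where 2.44% of all genes were lower at that threshold. In that comparison the values were -0.14 for Tlr7, -0.10 for Tlr1, -0.10 for Tlr13 and -0.06 for Tlr2. Without control replicate 2, 8 of the 10 genes lay below 0, with Tlr3 and Tlr4 above it. Without control replicate 1, 2 of the 10 (Tlr8 and Tlr9) had an unadjusted p under 0.05, where 2.1% of all genes were lower at that threshold.

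On average the endosomal receptors lay further below the controls than the surface receptors, largely through Tlr9. Not every endosomal gene did: Tlr3, with a log2 fold change of -0.11, differed less than each surface receptor except Tlr4. The mean over the 5 endosomal genes of log2(normalized count + 1), relative to the control mean, was -0.16, 0.26 and -0.10 in control replicates 1, 2 and 3 and -0.48, -0.42 and -0.08 in replicates 1, 2 and 3 with miR-19a/19b mimic, a difference of -0.33 with a median over genes of -0.29. For the 5 surface genes it was -0.14, 0.21 and -0.07 against -0.35, -0.20 and -0.01, a difference of -0.19 with a median of -0.19. Each class was below 0 in all 3 miR-19a/19b mimic hearts and overlapped the controls through replicate 3. Without Tlr9, the other 4 endosomal genes differed by -0.24 with a median of -0.27. Without miR-19a/19b mimic replicate 3, the differences were -0.45 for the endosomal and -0.28 for the surface class. They were -0.25 and -0.11 without replicate 1 of that group, and -0.20 and -0.08 without control replicate 2.

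Taken within each heart, the endosomal mean minus the surface mean was -0.01, 0.05 and -0.04 in the control hearts and -0.13, -0.22 and -0.07 in the miR-19a/19b mimic hearts, so that this measure did not overlap between the groups. The difference, with Tlr9 included, was -0.14 and remained between -0.17 and -0.10 with each heart left out. With Tlr9 taken out of the endosomal class it was -0.05, 0.09 and -0.04 against -0.07, -0.07 and -0.00027, a difference of -0.05 with overlapping groups. The same measure for Tlr9 against the mean of the other 9 genes was 0.19, -0.18 and -0.01 in control hearts and -0.33, -0.78 and -0.35 in hearts with miR-19a/19b mimic, a difference of -0.48 without overlap. No test was made of these class values, since the classes and Tlr9 were taken up with earlier results known.

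Compared per length of gene model, so that genes can be set side by side, the control hearts held most of Tlr13, at 405 ± 100.2 (SD, n = 3) normalized counts per kb. Tlr2 followed at 219 ± 17.2, Tlr7 at 209.7 ± 42.1, Tlr8 at 163 ± 34.4, Tlr4 at 149 ± 15.1, Tlr9 at 146 ± 8.98 and Tlr1 at 142 ± 16.9 normalized counts per kb. Tlr3 at 87.3 ± 11.99, Tlr6 at 52.5 ± 10.9 and Tlr5 at 28.0 ± 6.35 normalized counts per kb came last. The neighbours from Tlr2 to Tlr1 in this order had overlapping ranges over the control hearts, and of these neighbours Tlr7 and Tlr8 alone held the same order, Tlr7 above Tlr8, in all 3. The steps from Tlr13 to Tlr2 (1.85-fold), Tlr1 to Tlr3 (1.62-fold), Tlr3 to Tlr6 (1.66-fold) and Tlr6 to Tlr5 (1.87-fold) had no overlap. In miR-19a/19b mimic hearts Tlr9 was at 91.8 ± 20.9 normalized counts per kb and Tlr1 at 118 ± 39.1, with overlapping hearts.

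**Figure D3:**
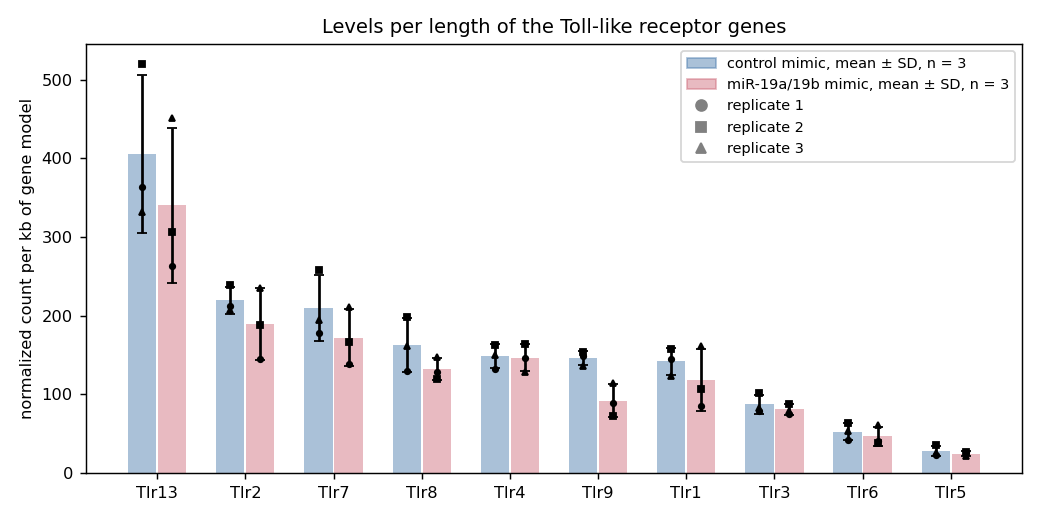
Normalized count per kb of gene model of the 10 receptor genes, in the order of the control means; bars start at 0 and show the mean of 3 hearts with the SD, and points are hearts. Tlr13 stands highest at 405 in control and 340.1 in miR-19a/19b mimic hearts, and Tlr9 goes from 146 to 91.8.

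For Tlr9, as for Tlr1, the genes with the most similar profile over the 6 hearts lay outside the receptor family. The family is a small part of the genes compared, so this sets neither gene apart. Profiles were compared by the root mean square distance between log2 values, each gene centred on its own mean, over 12139 genes with a mean of at least 50 normalized counts. Genes named only by a Gm or Rik number were left out. The closest receptor gene to Tlr9 was Tlr1, at a distance of 0.28, where the median gene lay at 0.42. Closest of the genes compared were Ccr7 at 0.10 and Spn at 0.11. Ccr7, a chemokine receptor of dendritic cells and lymphocytes, had 77.4, 93.7 and 82.2 normalized counts in control hearts and 45.2, 37.1 and 62.2 in miR-19a/19b mimic hearts. Spn, a sialoglycoprotein of leukocytes, had 334, 335 and 326 against 195, 189 and 236. In both genes, as in Tlr9, replicate 2 was the lowest and replicate 3 the highest of the miR-19a/19b mimic hearts, all below every control. Both were picked for a profile near that of Tlr9, so this likeness follows from the choice.

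Tlr1, the surface receptor with the smallest unadjusted p, had closer neighbours. Ly9, a leukocyte receptor of the SLAM family, lay at a distance of 0.049, and C3ar1, a complement receptor, and Cd300lf, an inhibitory receptor of myeloid cells, at 0.068 each, where the median gene lay at 0.35. Tlr2 was the closest receptor gene, at 0.10. Ly9 had 739, 811 and 648 normalized counts in control hearts and 436, 584 and 901 in miR-19a/19b mimic hearts, with replicate 3 above every control as in Tlr1. Ly9 was picked for a profile near that of Tlr1, so this likeness also follows from the choice. These distances over 6 hearts of the same libraries are a description and were not tested.

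The rest of the pathway was followed in 7 lists with 111 genes, of which 110 were tested, and 18 were lower and 1 was higher at an unadjusted p under 0.05. Of the lower genes, 14 belonged to the interferon targets. At an adjusted p of 0.05 in limma, 0 of the 110 passed. Over all genes, 2.63% were lower and 1.39% higher at the unadjusted threshold.

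Of the co-receptors and chaperones, 12 of 14 had a log2 fold change below 0, with a median of -0.13, and 1 gene in each direction had an unadjusted p under 0.05. Unc93b1, which carries the endosomal receptors to their compartment, had 4573, 5333 and 4548 normalized counts in control hearts and 3250.3, 3472 and 4857 in miR-19a/19b mimic hearts (log2 fold change -0.34, standard error 0.16, unadjusted p = 0.0663 and adjusted p = 1 from limma). As for Tlr2, Tlr6, Tlr7, Tlr8 and Tlr13, replicates 1 and 2 lay below every control and replicate 3 within the controls. Ctss, a lysosomal protease that cleaves endosomal receptors, had 14333, 18543 and 16109.9 against 9995, 11219 and 15355 (log2 fold change -0.44, unadjusted p = 0.047 in limma). Lbp, which hands lipopolysaccharide to Cd14, went the other way without overlap, from 306, 259 and 323 to 355, 424 and 379 normalized counts (log2 fold change 0.38, unadjusted p = 0.0166 and adjusted p = 1 from limma). Cd14 (-0.13), Ly96 (-0.21), the partner of Tlr4, and Ly86 (-0.25), a secreted partner of a Tlr4-like receptor, overlapped between groups, with unadjusted p of 0.126 or more in limma.

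Of the adaptors and kinases, 17 of 20 lay below 0, with a median log2 fold change of -0.10, and 1 was lower at an unadjusted p under 0.05. This was Pik3ap1, an adaptor that links receptors to phosphoinositide signaling, with 1182, 1319 and 1200.5 normalized counts in control hearts and 706, 743 and 1164 in miR-19a/19b mimic hearts (log2 fold change -0.54, unadjusted p = 0.0156 and adjusted p = 1 from limma). Myd88 had 862, 938 and 776 against 674, 772 and 986 (log2 fold change -0.10, 95% interval -0.44 to 0.24, unadjusted p = 0.533 in limma). Ticam1, the adaptor of Tlr3, had 449.8, 389 and 389 against 489.5, 466 and 454 (log2 fold change 0.20, unadjusted p = 0.0984 in limma), with every miR-19a/19b mimic heart above every control. The ubiquitin ligases Traf3 and Traf6 were each at -0.21 without overlap, with unadjusted p of 0.0513 and 0.115 in limma. Tirap (-0.13), Ticam2 (-0.35) and Irak4 (-0.09) overlapped between the groups.

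Of the transcription factors, 9 of 12 lay below 0, with a median log2 fold change of -0.08, and 2 were lower at an unadjusted p under 0.05. Irf7, which acts downstream of Tlr7 and Tlr9 and is itself an interferon target, had 4886, 6030 and 4175 normalized counts in control hearts and 2764, 3626 and 2674 in miR-19a/19b mimic hearts. The groups of Irf7 did not overlap, and its log2 fold change was -0.73 (standard error 0.17, unadjusted p = 0.00189 and adjusted p = 0.806 from limma). Rel, an NF-κB subunit, had 455, 491 and 472 against 384, 385 and 403 (log2 fold change -0.27, unadjusted p = 0.0227 in limma), also without overlap. Irf5, a factor of Myd88 signaling, was at -0.13 with overlapping groups, as was Irf8 at -0.20, and Nfkb1, another NF-κB subunit, was at -0.10.

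The inhibitors of the pathway showed no common direction, with 9 of 18 below 0, a median log2 fold change of -0.04 and 0 genes at an unadjusted p under 0.05. The deubiquitinase Cyld was at -0.24 without overlap (unadjusted p = 0.0657 in limma). Nfkbia, the inhibitor that holds NF-κB in the cytoplasm, had 1206, 1440.5 and 1347 normalized counts in control hearts and 1345, 1513 and 1693 in miR-19a/19b mimic hearts (log2 fold change 0.19, unadjusted p = 0.154 in limma). Irak3, which blocks signaling by the Irak kinases, was at 0.03, Nfkbie at -0.35 and Nfkbiz at -0.15.

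Downstream genes were described as an inflammatory and an interferon branch, and the difference between the branches was not tested. Of 19 inflammatory targets, 15 lay below 0, with a median log2 fold change of -0.10, and 0 had an unadjusted p under 0.05. Nlrp3, an inflammasome receptor, had 218, 206 and 170.03 normalized counts against 115, 137 and 206 (log2 fold change -0.41, unadjusted p = 0.094 in limma). Ptgs2, the inducible cyclooxygenase, was at -0.37, Il1rn, an interleukin antagonist, at -0.33 and the chemokine Ccl3 at -0.40, all with overlapping groups.

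Of the interferon targets, 15 of 15 tested lay below 0, with a median log2 fold change of -0.69, and 14 were lower at an unadjusted p under 0.05. The list had 16 genes, and Ifnb1 was not tested because its mean was below 1 normalized count. Ifit2, an antiviral RNA-binding protein, had 1757, 1776 and 1591 normalized counts in control hearts and 895, 1128 and 1089 in miR-19a/19b mimic hearts (log2 fold change -0.72, unadjusted p = 0.000165 and adjusted p = 0.396 from limma). Ifit1, of the same family, was at -1.05, the chemokine Ccl5 at -0.99 and the antiviral enzyme Rsad2 at -0.59, with adjusted p between 0.724 and 0.806 in limma. In 14 of the 15 the groups did not overlap, with Cxcl10 the exception, where 5.3% of all genes did not overlap in the lower direction. Since the list was drawn up with earlier results of these data known, its count is a description. Without miR-19a/19b mimic replicate 3, 15 of the 16 genes then tested were lower at an unadjusted p under 0.05 and 11 at an adjusted p under 0.05. Of all genes in that comparison, 6.08% and 0.774% were lower at these thresholds.

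Genes of proteins that can act as endogenous ligands of the receptors lay on both sides of 0, with 6 of 12 below it, a median log2 fold change of -0.07 and 0 at an unadjusted p under 0.05. Vcan, a matrix proteoglycan, had 3056, 3458 and 3401 normalized counts against 2875, 2752 and 3031 (log2 fold change -0.19, unadjusted p = 0.0904 in limma) without overlap. Hmgb1, a nuclear protein released by dying cells, was at 0.20, the heat shock protein Hspa1a at 0.31 and the matrix protein Tnc at -0.23, with overlapping groups. Removal of miR-19a/19b mimic replicate 3 took the counts of lower genes at an unadjusted p under 0.05 from 1 to 7 of the co-receptors and chaperones, from 1 to 6 of the adaptors and kinases, from 2 to 5 of the transcription factors and from 0 to 2 each of the inhibitors, inflammatory targets and endogenous ligands, where 6.08% of all genes were lower at that threshold. Without replicate 1 of that group, 0 of the co-receptors and chaperones and 0 of the adaptors and kinases were lower at it, and the median log2 fold change was 0.00018 for the co-receptors and chaperones, 0.13 for the inflammatory targets and 0.11 for the endogenous ligands. The interferon targets then had 13 of 16 lower at an unadjusted p under 0.05, with a median of -0.54. Of all genes in that comparison, 2.44% were lower at that threshold.

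**Figure D4:**
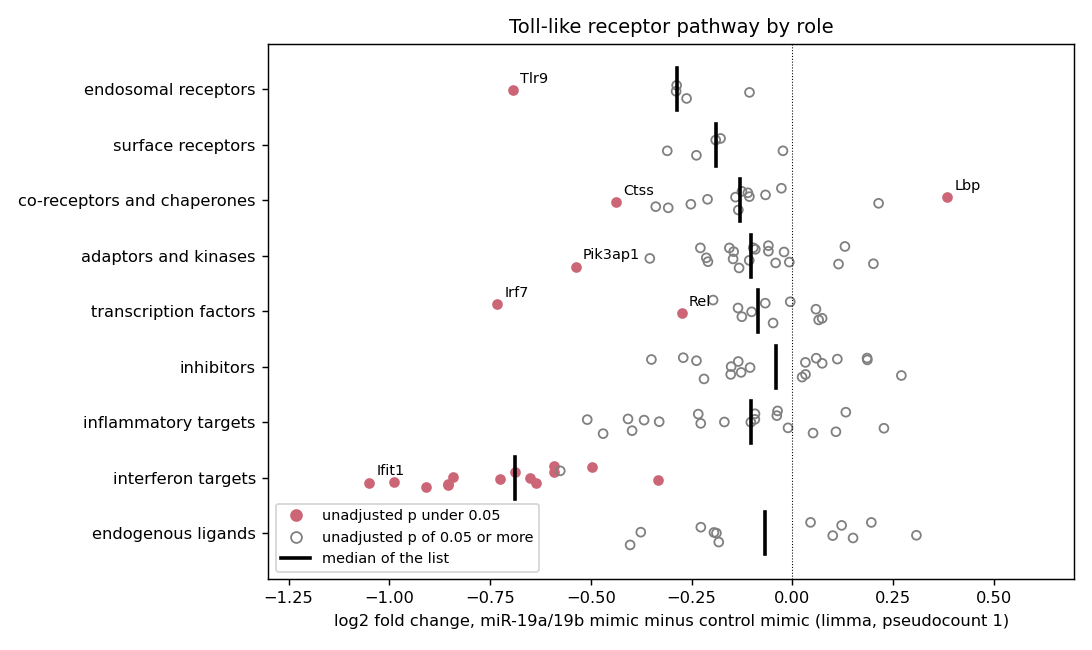
Log2 fold change, miR-19a/19b mimic minus control mimic, of each gene in the receptor classes and the 7 pathway lists, from limma; filled points have an unadjusted p under 0.05 and black lines are list medians. The interferon targets lie furthest to the left, with a median of -0.69, and the other medians lie between -0.29 and -0.04.

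Leukocytes carry many of these receptors, and the levels of leukocyte markers in the same hearts are given beside them. Whether these markers varied with the receptor genes was not tested. The sum of 5 monocyte markers (Ly6c2, Ccr2, Plac8, Chil3 and F10) was 4589.9 to 6062 normalized counts in control hearts. It was 2815 to 4307 in miR-19a/19b mimic hearts, without overlap. Of the 5, 3 (Ly6c2, Ccr2 and Plac8) were lower at an unadjusted p under 0.05, where 2.63% of all genes were. Chil3 (log2 fold change -0.35) and F10 (0.12) overlapped between the groups, with miR-19a/19b mimic replicate 3 above every control in both. Ly6c2, a marker of inflammatory monocytes, had 818, 748 and 465 against 149, 268 and 176 (log2 fold change -1.77, adjusted p = 0.396 from limma). The sum of 6 T cell markers (Cd3d, Cd3e, Cd3g, Cd4, Cd8a and Trac) did not overlap either, at 188 to 259.6 and 141 to 166 normalized counts, with 2 of 6 lower at an unadjusted p under 0.05. Of 8 dendritic cell markers, 3 (Flt3, Xcr1 and Cd209a) were lower at that threshold, and Siglech, a marker of the plasmacytoid dendritic cells in which Tlr9 is prominent, had 16.6, 26.3 and 21.5 against 8.61, 14.4 and 17.3 normalized counts with overlapping groups (unadjusted p = 0.0896 in limma). Clec9a, a marker of cross-presenting dendritic cells, was at 0.19 on the log2 scale and Zbtb46, a dendritic cell transcription factor, at 0.00046. The summed levels of the 8 dendritic cell markers, at 1197 to 1338 and 1049 to 1282 normalized counts, overlapped.

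The other leukocyte sums overlapped between the groups. The sum of 12 macrophage markers (among them Adgre1, Csf1r and Lyz2) was 91355 to 107062 normalized counts in control hearts. In replicates 1, 2 and 3 with miR-19a/19b mimic it was 75968, 87494 and 114353. Tlr1, Tlr2, Tlr7 and Tlr13 placed these 3 hearts in the same order. So did the monocyte, neutrophil, dendritic cell, B cell and T cell sums, so the order is not particular to macrophage markers. Of the 12 macrophage markers, 0 were lower and 1 (Cd163) was higher at an unadjusted p under 0.05 in limma. Over all genes, 2.63% were lower and 1.39% higher at that threshold. The neutrophil markers summed to 1525 to 1838 normalized counts in controls and 736 to 2389 in miR-19a/19b mimic hearts, and 1 of 6 (Retnlg) was lower at that threshold. B cell markers summed to 159 to 185 and 130.2 to 249. In replicate 3 the macrophage, neutrophil and B cell sums were above every control. The monocyte and T cell sums of that heart, at 4307 and 166, were below every control. Its dendritic cell sum, at 1282, was within the controls. This is 1 heart, and a link of these sums to Tlr9, which was at 396 normalized counts in it, was not tested. Endothelial sums were 20240 to 26589 normalized counts in controls and 22733 to 23783 in miR-19a/19b mimic hearts, and fibroblast sums 418961 to 517064 and 345169 to 624865. No marker was at 0 in all hearts, and Ly6g, a defining neutrophil marker, was at 0 in control replicate 2 and miR-19a/19b mimic replicate 1. The part of these cell types in the receptor values was not tested.

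**Figure D5:**
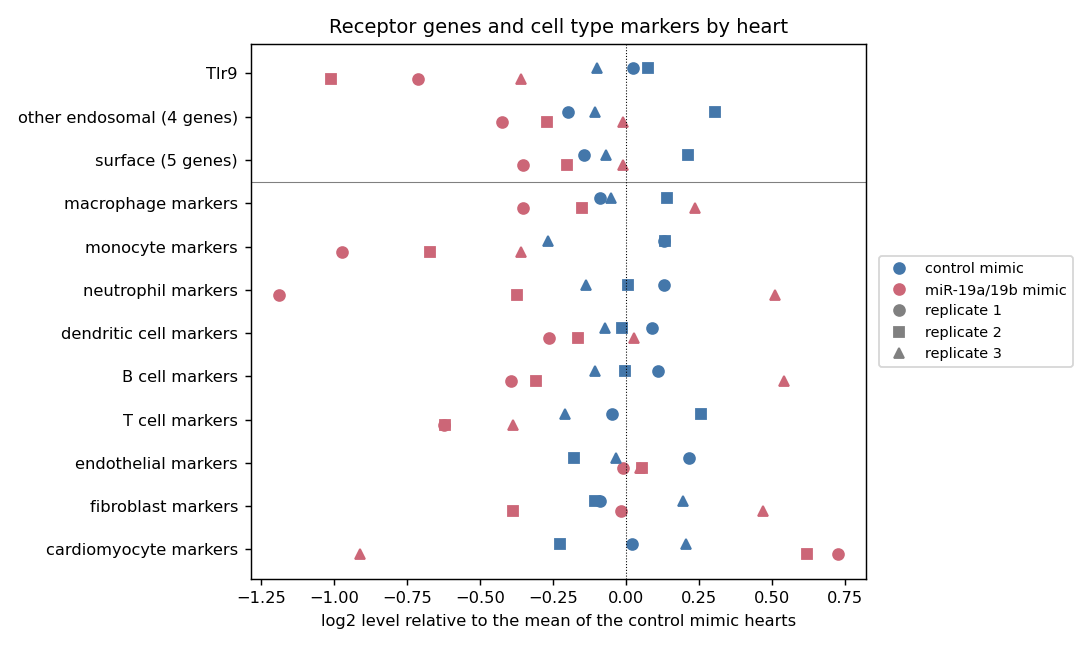
Log2 level of Tlr9, of the 4 other endosomal and the 5 surface receptor genes (mean over genes), and of the summed markers of 9 cell types, each relative to the mean of the control mimic hearts; points are hearts, marked by group and replicate. Tlr9, monocyte and T cell markers show no overlap between groups. Replicate 3 of the miR-19a/19b mimic group stands above every control for macrophage, neutrophil, B cell and fibroblast markers. For cardiomyocyte markers it stands below every control, and replicates 1 and 2 of that group stand above every control.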

How the data were processed

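RNA-seq of ventricular tissue from 6 mouse hearts, grouped by the library labels into 3 control mimic and 3 miR-19a/19b mimic hearts, was used. Per the labels and methods, the authors aligned reads with STAR (2.5.1b) and counted them per gene with HTSeq (0.6.0), and the submitters' notes list DESeq2 1.10.1. The deposited signal is a normalized count, reads per gene over a library's size factor (0.905 to 1.16). Divided by the value of a read, 100% of values per library were whole within 0.01, so reads were recovered for count tests. Columns of the authors' own fold changes and p-values, and a shorter table of genes that the authors selected, were not used. The notes name mm9, but of 25884 gene identifiers found in GENCODE M21 (GRCm38), 82.7% had the same start and end, as did all the receptor genes except the end of Tlr3, so coordinates are GRCm38 as the files list them.

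Groups were compared by limma-trend (limma 3.58.1, R 4.3.3), applied to log2(normalized count + 1) wherever a gene's mean reached 1, which understates the change of low genes. P-values were adjusted by the Benjamini-Hochberg method over all 21126 genes, and a gene was called at 0.05. DESeq2 1.42.0 (Wald), edgeR 4.0.16 (quasi-likelihood and exact tests), limma-voom, TMM scaling, other filters and pseudocount, a replicate block and each heart left out were alternatives. The fits were tested on simulated reads. The receptor genes, gene lists and tests were chosen with earlier results of these data known. Named were all receptor genes, up to 4 genes of each list with the smallest unadjusted p, direct partners of a receptor, up to 3 genes nearest in profile to Tlr1 and to Tlr9, the genes listed for marker sums, and, chosen after their values were seen, Cxcl10 and Ifnb1 as exceptions in their list. Near-identical transcripts were sought with BLAST. Items of these lists that are withheld are not reported here.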

Additional observations from a re-analysis of the deposited data

How the results depend on the processing

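Each receptor gene and list was recomputed under 9 other settings and with each of the 6 hearts left out. Under the 9 settings all 10 receptor genes kept a log2 fold change below 0, Tlr9 alone had an unadjusted p under 0.05, and 0 receptor genes passed an adjusted p of 0.05. For Tlr9 these settings gave -0.70 to -0.67, with adjusted p of 0.133 in edgeR's exact test and 0.136 in DESeq2 to 1 with the replicate block. Over all genes, limma and edgeR's quasi-likelihood test called 0 genes at an adjusted p of 0.05 (555 lower and 293 higher at an unadjusted p under 0.05 in limma), DESeq2 called 28 lower and 1 higher, and edgeR's exact test 28 lower and 2 higher. Replicate numbers did not pair the hearts: deviations from the group means correlated at 0.012, -0.28 and -0.41 between hearts of the same number. With the replicate block the p of Tlr9 was 0.00704, and 434 genes were lower and 207 higher at an unadjusted p under 0.05, fewer than without it. With 1 heart left out, the number of receptor genes lower at an unadjusted p under 0.05 went from 1 to between 1 and 7, and at an adjusted p under 0.05 from 0 to between 0 and 1. The pathway genes lower at an unadjusted p under 0.05 went from 18 to between 14 and 39, and those higher from 1 to between 0 and 3. The log2 fold change of Tlr4 then lay between -0.11 and 0.065, above 0 without control replicate 2 (0.045) or miR-19a/19b mimic replicate 3 (0.065), and that of Tlr3 between -0.18 and 0.0028, above 0 without control replicate 2. The cause of these shifts was not tested. With 3 hearts a group, the narrowest 95% interval among the receptor genes was that of Tlr4, -0.31 to 0.26 on the log2 scale.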

Other observations

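The remaining mouse receptor genes of the family were near the limit of these libraries. Tlr11, a receptor of microbial profilin, had 3.32, 10.7 and 6.54 normalized counts in control hearts and 4.3, 7.22 and 12.1 in miR-19a/19b mimic hearts (log2 fold change 0.19, 95% interval -0.97 to 1.36 from limma). Tlr12, its partner, had 4.42, 4.88 and 3.74 against 2.15, 1.03 and 4.32 (log2 fold change -0.72, interval -1.85 to 0.42 from limma). At a few reads per heart neither value allows a difference to be called.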
